A study of Mus musculus with 18 samples.

Results

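The annotation that the authors built from long reads of mouse bone marrow progenitors marks each transcript that was seen in the reads with a status. Of the 7205 transcripts that it classes as nonsense-mediated decay transcripts, 401 carry the status "known", and these 401 transcripts, in 369 host genes, are described here. They were chosen by that status and that class alone, out of 153565 annotated transcripts, of which 23570 are known. The other 6804 nonsense-mediated decay transcripts, in 4412 genes, carry no status. All 369 hosts are annotated as protein-coding genes. Of the hosts, 339 had 1 such transcript, 28 had 2, and Ercc8 and Zdhhc3 had 3 each.

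Lineage-negative, cKit-positive bone marrow cells (LK cells) were taken from 6 female C57BL/6 mice, 3 young (8 weeks, mice 1, 3 and 5) and 3 aged (72 weeks, mice 2, 4 and 6). Single-cell cDNA from each mouse, made with a droplet kit that reads the 3 prime end, gave 1 short-read library. The same cDNA was also sequenced with long reads. No agent or transgene distinguishes the groups, and the labels name each mouse as a separate animal. Marker levels fitted the sort in part, since Kit (the stem cell factor receptor) lay between 37.6 and 58.0 CPM (counts scaled to a total of 1000000) and Itgam, a myeloid surface integrin, at no more than 4.11 CPM in every mouse. The short-read table held 8436 cells, 4148 young and 4288 aged, with 681 to 1919 cells and 3628043 to 17585424 unique molecular identifiers (UMIs, counted molecules) per mouse. Between 1236696 and 1833762 long reads per mouse fell on genes. Mitochondrial counts took a median of 2.00% per cell in mouse 6 and at most 0.93% in the other mice, and 42 cell barcodes occurred in 2 libraries. The part of either in the results was not tested.

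Nonsense-mediated decay (NMD) is the surveillance pathway that degrades mRNAs whose stop codon lies well upstream of an exon junction, where the ribosome stops before it has displaced the junction complex. Cells also use it to set the level of normal genes, because a splicing choice that adds a stop-carrying ("poison") exon, or skips an exon out of frame, turns a coding mRNA into a decay target. Many splicing factors regulate their own amount in this way, and in haematopoietic stem cells the pathway is known to be essential.

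The stop codon is what places a transcript in the class, so the sequences around it are shown first, for hosts that themselves act in splicing. Positions are on GRCm38 and bases were read from the Gencode M21 transcripts, 5′ to 3′ on the transcript strand. In the first set, a poison exon absent from the gene's protein-coding transcripts carries the stop. Lower case gives the 24 bases before the exon and capitals the exon's bases up to and including the stop codon.
Srsf7-203, chr17:80205054-80205081, minus strand: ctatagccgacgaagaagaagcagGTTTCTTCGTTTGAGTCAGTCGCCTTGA
Tra2b-206, chr16:22259181-22259261, minus strand: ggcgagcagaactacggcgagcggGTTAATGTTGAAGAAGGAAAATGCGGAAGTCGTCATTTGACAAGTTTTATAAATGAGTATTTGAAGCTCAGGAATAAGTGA
Rbm39-212, chr2:156178881-156178952, minus strand: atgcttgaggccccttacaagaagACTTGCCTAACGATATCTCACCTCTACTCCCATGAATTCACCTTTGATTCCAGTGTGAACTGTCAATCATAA
Srrm2-204, chr17:23821921-23821933, plus strand: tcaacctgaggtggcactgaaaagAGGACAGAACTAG
Prpf38b-204, chr3:108910390-108910395, minus strand: gtggtggacgagatctactttaagGATTGA
The second member of Rbm39, Rbm39-222, has the same bases here.

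In the second set a skipped exon moves the frame. Each pair shows, in capitals, the exon that the closest protein-coding transcript includes, and then the bases that follow in its place in the NMD transcript, up to the stop codon. Both lines of a pair share the same 24 lower-case bases. This pair of genes was chosen after their values were seen.
Ptbp1-206, skipped exon of 34 nt, chr10:79862014-79862047, plus strand: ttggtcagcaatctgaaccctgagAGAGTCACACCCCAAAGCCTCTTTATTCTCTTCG
Ptbp1-201, chr10:79862449-79862475, plus strand: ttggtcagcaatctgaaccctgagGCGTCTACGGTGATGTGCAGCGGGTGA
Snrpa1-206, skipped exon of 80 nt, chr7:66070119-66070198, plus strand: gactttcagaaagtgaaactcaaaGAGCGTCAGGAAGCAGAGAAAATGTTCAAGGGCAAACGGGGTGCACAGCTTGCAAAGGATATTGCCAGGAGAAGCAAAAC
Snrpa1-201, chr7:66070590-66070595, plus strand: gactttcagaaagtgaaactcaaaTTTTAA
Neither 34 nor 80 is a multiple of 3, so in both genes the next exon is read in another frame and soon reaches a stop codon.

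The splicing hosts used several routes to their stop. Srsf7-203 (ENSMUSG00000024097.11, 9 exons, 1991 nt), of an SR protein that promotes exon inclusion, contained a poison exon of 460 nt, and its stop lay 699 nt and 5 junctions before the last junction. Tra2b-206, of another serine/arginine-rich activator, contained one of 276 nt, which left a reading frame of 117 nt and 8 junctions after the stop. The poison exons were 73 nt long in Rbm39 (a coactivator related to U2AF), 95 nt in Srrm2 (a large spliceosome-associated SR-related protein) and 53 nt in Prpf38b (a spliceosome-associated factor). By contrast, the members of Srsf6 and Hnrnpdl ended at a stop codon that protein-coding transcripts also use, and they included exons of 268 and 105 nt. The member of Ddx5, an RNA helicase that takes part in splicing, retained an intron, had 1 junction after the stop and placed its stop 1485 nt before that junction. Hnrnpa1-203, of a splicing repressor that binds RNA widely, was classed as differing from the closest protein-coding transcript only in its ends. That class can include junctions near the ends that the other transcript lacks. The stop of Hnrnpa1-203 lay 90 nt before the last junction.

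The 401 members were compared in structure with the NMD transcripts that had no status and with the 12550 known protein-coding transcripts, as a description without a test. A coding region was found in Gencode M21 for 399 members. Their stop codon lay a median of 307 nt before the last exon junction (quartiles 170 and 587), against 335 nt in NMD transcripts with no status. In known protein-coding transcripts the median was -150 nt, that is, the stop lay after the last junction. It lay more than 50 nt upstream in 397 of 399 members (99.5%), in 99.5% of those with no status and in 0.275% of known protein-coding transcripts. The members at or under 50 nt were Thap12-204, at 50 nt, and Tomm22-203, at 49 nt. All 3 sets had a median of 7 exons, and transcripts of more than 10 exons made up 20.2% of members (81), 29.1% of NMD transcripts with no status and 30.2% of known protein-coding transcripts. In the 373 transcripts with no status of the same host genes, that share was lower, at 16.9%.

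The median length of the members exceeded that of NMD transcripts with no status, and most of it lay after the stop. The members' median length was 1783 nt, of which 288 nt were coding and 1169 nt followed the stop. For transcripts with no status the medians were 1212, 306 and 651 nt, and for known protein-coding transcripts 2508, 1173 and 924 nt. An annotated start was lacking in 46 members (11.5%) and in 30.0% of NMD transcripts with no status. The gap in length did not narrow when transcripts with no status were restricted to genes of at least 100 long reads, for which the median length was 957 nt, with 584.5 nt after the stop, or to the same host genes, for which these were 828 and 527.5 nt. Of the members, 93 had a single junction after the stop, 94 had 2, 83 had 3 and 129 had more than 3. Dgkz-212, of a diacylglycerol kinase, stood at the far end with 28 exons and 25 junctions after a stop at the end of a 246-nt reading frame. At the other end Crebzf-205, Prmt6-202 and Rnpepl1-208 had only 2 exons each.

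**Figure D1:**
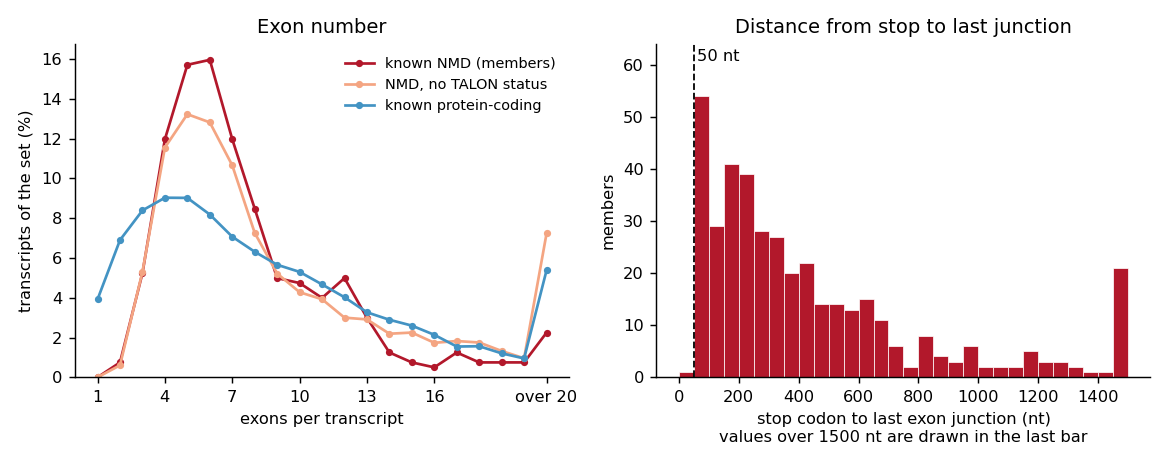
Left, percentage of transcripts (vertical axis) by number of exons (horizontal axis, with more than 20 exons pooled in the last point) for the NMD transcripts with known status, those with no status and the known protein-coding transcripts. Right, number of the 399 members with a coding region by distance in nt from the stop codon to the last exon junction, with values over 1500 in the last bar and a dashed line at 50 nt. All but 2 members lie to the right of the line, and of the 3 sets drawn the members have the smallest share above 10 exons.

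The stop codon lay most often in an exon that protein-coding transcripts also use but read in another frame or from another start. This held for 260 of the 395 members that could be compared (65.8%, against 59.9% of 6645 transcripts with no status). A further 71 members (17.97% against 20.3%) had the stop in an exon absent from all protein-coding transcripts of the gene. In 42 members (10.6% against 12.6%) it lay in intronic sequence next to a shared exon, and 22 members (5.57% against 7.19%) ended at the same stop as a protein-coding transcript. The stop followed soon after the start of its exon, at a median of 25 nt in shared exons and 30 nt in absent exons. TGA was the stop codon in 227 members, TAA in 91 and TAG in 81, and 351 coding regions began with ATG.

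Skipping was the most frequent difference from the closest protein-coding transcript, in 125 members (31.7%, against 29.8% of transcripts with no status). It was followed by an included exon (92 members, 23.3% against 26.02%), another 3 prime splice site (78, 19.8% against 22.1%) and another 5 prime splice site (68, 17.2% against 16.2%). A retained intron was found in 20 members (5.06% against 4.61%), and a transcript could count in several groups. Of the 113 members that skipped a single exon, that exon was no multiple of 3 in 109 (96.5%), with a median of 110 nt. Of the 90 that included a single exon, it was no multiple of 3 in 64 (71.1%), with a median of 102 nt.

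**Figure D2:**
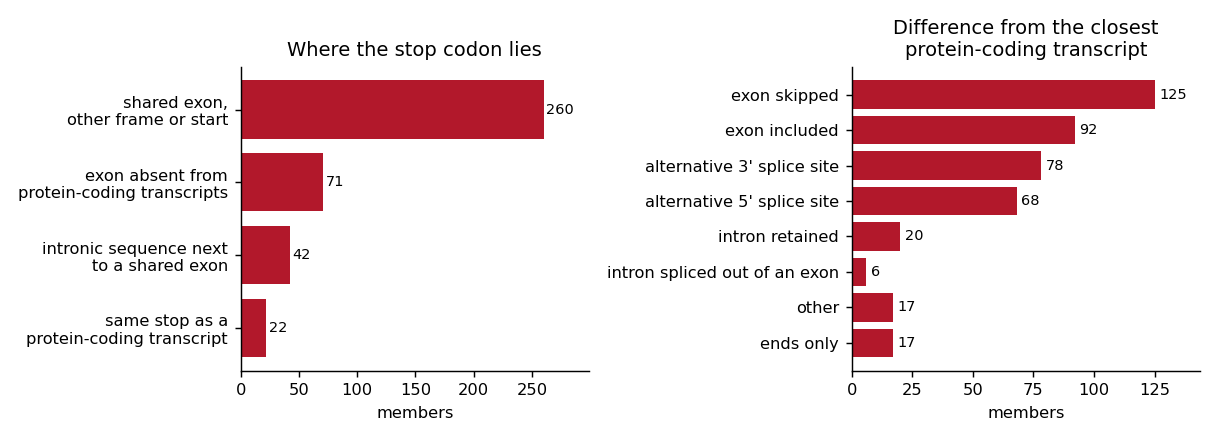
Number of NMD transcripts with known status (horizontal bars from 0) by where their stop codon lies and by how they differ from the closest protein-coding transcript of their gene, for the 395 that could be compared. Stops in shared exons (260) and skipped exons (125) lead, and a transcript may count under more than 1 difference.

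Of the 30 hosts with several members, both with 3 and Rbm38 are described here. The 3 members of Ercc8, a subunit of the ligase that acts in transcription-coupled DNA repair, all skipped an exon of 102 nt and had a coding region of 174 nt, although they spanned 6, 11 and 12 exons. Since 102 is a multiple of 3, a skip of that length does not in itself move the frame. In Zdhhc3, an enzyme that attaches palmitate to proteins, Zdhhc3-201 and Zdhhc3-207 placed the stop 406 nt before the last junction and Zdhhc3-211, which skipped an exon of 125 nt, placed it 301 nt before. Both members of Rbm38, an RNA-binding protein of the p53 response, used another 5 prime splice site and ended 150 nt before the last junction. Members of 1 gene thus share sequence and are not independent of each other.

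The hosts' other detected transcripts were mainly ones added from the reads, known protein-coding ones and known retained-intron ones. The 369 hosts had 1696 transcripts with a status, a median of 4 per gene with the NMD transcript itself included, and up to 78. Of these, 495 were known protein-coding transcripts in 329 hosts (89.2%), 262 known retained-intron transcripts in 172 hosts (46.6%) and 504 transcripts added from the reads in 171 hosts (46.3%). The added ones comprised 395 that match part of a known splice chain, 100 that join known splice sites anew and 9 with a splice site not annotated before. For 18 hosts, the NMD transcript was the only one with a status. The comparison set was 2722 other protein-coding genes with a status and an annotated NMD transcript. Known protein-coding, retained-intron and added transcripts were found in 80.05%, 50.9% and 46.4% of them. In the 2166 of these genes with at least 100 long reads, the shares were 82.4%, 53.8% and 55.5%. The hosts were not limited to 100 long reads, and no test was made. In 183 hosts a further 373 annotated NMD transcripts had no status. Mpo (myeloperoxidase of neutrophil granules) led with 78, of which 73 were added, followed by Ptbp1 with 20 and Srrm2 with 19.

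Whether an annotated NMD transcript was marked as known went with how many long reads its gene had. The share was 1.83% (53 of 2894) in genes of fewer than 100 reads, 7.68% (246 of 3204) in genes of at least 100 but fewer than 1000 and 9.21% (102 of 1107) in genes of 1000 or more. Genes of 4 splicing lists (SR proteins, hnRNP proteins, other splicing regulators and the spliceosome core) reached 13.1% (17 of 130) against 5.57% of all. In genes with an annotated NMD transcript and any transcript with a status, the splicing lists had a median of 1707 long reads (66 genes). All 3095 such genes had a median of 367. The other genes of the 4596 with an annotated NMD transcript have no status and were left out of both medians. By reads of the gene, the splicing lists stood at 0 of 7 below 100 reads, at 9.76% (4 of 41) from 100 to under 1000 and at 15.9% (13 of 82) from 1000, and no test of these differences was made. In SR proteins 2 of 15 annotated NMD transcripts were known, in hnRNP proteins 3 of 26, in other regulators 10 of 68 and in the spliceosome core 2 of 21. None was known among 3 of NMD factors, 4 of the exon junction complex, 3 of haematopoietic transcription factors and 1 of the amino-acid response, and 1 of 8 was known in cytokine receptors, in Ifngr1.

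Deposited long-read counts are per gene, so a level below is that of all transcripts of a host and says nothing of how much of it is the NMD transcript. The median host had 478 long reads over all runs. Mpo alone had 122613 (26.1% of reads on hosts), followed by Pfn1 (profilin, which binds actin) with 30898, Rpl13a (a protein of the large ribosomal subunit) with 13323, Ddx5 with 7420 and Skp1a (an adaptor of SCF ubiquitin ligases) with 6735. Unc5cl and Etfbl had no long read counted although their NMD transcripts are marked as known, so the status is not a count. In long reads Mpo had 12364, 9501 and 12029 CPM in the young mice 1, 3 and 5 and 18049, 10875 and 10696 CPM in the aged mice 2, 4 and 6, so the ages overlapped. Of the hosts, 128 hosts overlap a gene on the same strand and 212 one on the opposite strand, so reads of these genes may not be told apart.

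To describe host levels by lineage, cells were clustered from short reads without any host gene, clusters were named from marker genes, and UMIs were summed per mouse and class. A class ending in "-like" is such a group. Mpo and Nxpe2 are also naming markers, of the PreGM-like and erythroid-like classes, so their levels and calls there are a description. Each counts among the hosts called higher in its class below. A cluster of 453 of the 1475 PreGM-like cells was named on 3 markers, the fewest allowed, with Mpo among them. Each class was set against the mean of the other 9 with the mouse as a block. A gene was called at an adjusted p under 0.05 and at least 1 on the log2 scale, with edgeR's quasi-likelihood test and Benjamini-Hochberg adjustment over 8603 genes. In class sums, fewer cells that express a gene and less of its RNA per cell cannot be told apart. Of the hosts, 363 are in the short-read table and 309 passed the filter on low counts. The background is the 7159 tested genes outside the clustering. Because genes used for clustering are the most variable ones, the 33 tested hosts that would have been among them have no counterpart in that background, so each class is also given for the other 276 hosts, which are the like-for-like set.

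The share of hosts called in no class was near that of the background. It was 217 of 309 (70.2%), against 69.5%. Of the hosts, 64 were called higher and 63 lower in at least 1 class, and 35 in both directions. The HSC-like class had 18 hosts higher and 22 lower (5.83% and 7.12%), against 10.4% and 5.32% of the background. Without the 33 variable hosts these counts were 14 and 12 of 276. The HSC-like split also turned with scaling: DESeq2's size factors in edgeR gave 31 higher and 12 lower, and DESeq2 itself 33 and 11, as they moved the median of all genes by 0.21 and 0.22 on the log2 scale. Leaving out mouse 4, which gave 159 of the 306 HSC-like cells, left 8 higher and 14 lower. In the erythroid-like class 17 hosts were higher and 32 lower (5.50% and 10.4%), against 2.51% and 11.4%, and 8 and 24 among the 276.

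The other classes held fewer calls, and in several of them the hosts called were mostly variable ones. In LMPP/MPP-like cells (lymphoid-primed and multipotent progenitors) 11 hosts were higher and 4 lower, against 4.36% and 0.559% of the background, and among the 276 hosts they were 7 and 0. Leaving out mice 1 and 2 left 7 higher. In cycling MPP-like cells the counts were 14 and 1, against 2.82% and 0.447%, but 6 and 0 among the 276. They were 7 and 0 of all tested hosts when clusters were cut at a resolution of 0.4. In megakaryocyte-like cells they were 7 and 10, against 2.61% and 2.56%, and 4 and 6 among the 276. Without mice 1 and 2, 4 of all tested hosts were higher. PreGM-like cells (early granulocyte-monocyte progenitors) had 7 and 1, against 0.95% and 0.279%, and 3 and 0 among the 276. Without mouse 3, 2 of all tested hosts were lower. GMP/monocyte progenitor-like cells had 8 and 2, against 1.66% and 1.97%, and 5 and 1 among the 276. Neutrophil-like cells had 13 and 7, against 2.63% and 3.73%, and 8 and 5 among the 276. Mast cell/basophil-like cells had 6 and 2, against 2.18% and 0.726%, and 3 and 2 among the 276. Without mouse 1, 2 or 6, 1 of all tested hosts was lower. Eosinophil-like cells, with 83 cells and 4 mice, had 3 and 4, against 0.74% and 0.447%, and 0 and 3 among the 276. Of all tested hosts, the 4 lower calls became 1, 2 and 0 without mice 1, 2 and 4.

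Other scalings moved the split of higher against lower calls by over 10 percentage points in some smaller classes too. In neutrophil-like cells it was 11 higher and 10 lower with DESeq2's size factors in edgeR and 11 and 9 with DESeq2. In GMP/monocyte progenitor-like cells these were 6 and 3 and 7 and 3, and DESeq2 gave 8 and 5 in LMPP/MPP-like, 5 and 2 in PreGM-like and 4 and 2 in eosinophil-like cells. The median log2 difference of the hosts lay between -0.13 and 0.06 in all 10 classes, and that of the background between -0.08 and 0.07.

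**Figure D3:**
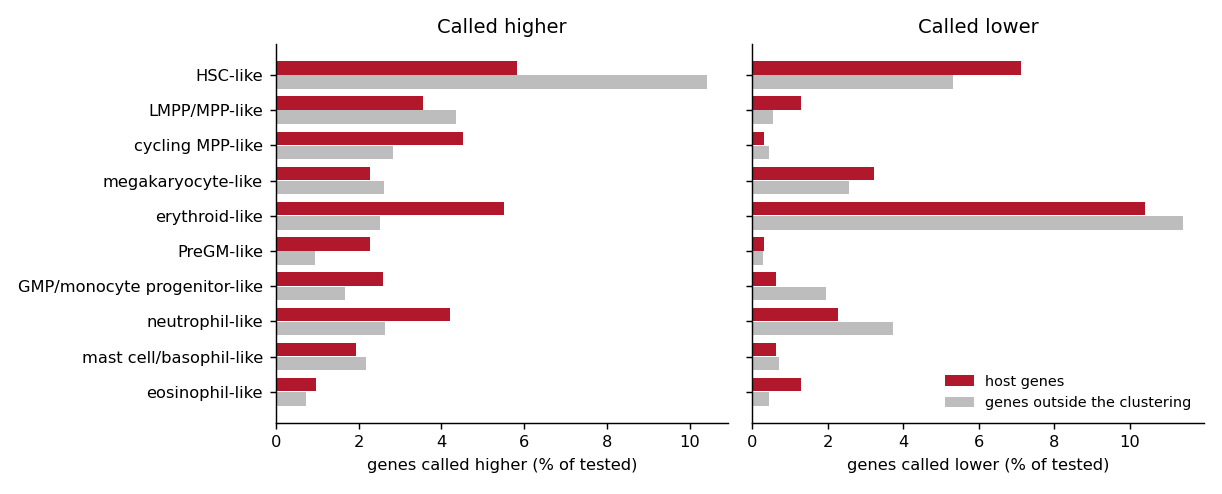
Percentage of genes called higher or lower in each cell class (vertical axis, bars from 0), for the 309 tested host genes and for the 7159 tested genes outside the clustering. In the erythroid-like class hosts were called higher at 5.50% against 2.51% and in the HSC-like class at 5.83% against 10.4%, and the hosts include 33 variable genes that the other set lacks.

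HSC-like cells were led by Rgs1, Irf2 and Klf6, and LMPP/MPP-like cells by Rgs1 and Irf2. Rgs1, a regulator of G protein signalling, lay between 83.9 and 365 CPM in HSC-like cells, with a median of 216 CPM. Its mean was 220 ± 94.6 CPM (SD, n = 6), a log2 difference from the other classes of 1.74 ± 0.19 (SE, adjusted p = 1.11e-12, edgeR). It was also higher in LMPP/MPP-like, cycling MPP-like, megakaryocyte-like and mast cell/basophil-like cells and lower in 4 classes, at 11.2 ± 6.58 CPM in erythroid-like cells and 27.4 ± 21.5 CPM in PreGM-like cells. No other host was called in as many classes. Irf2, an interferon regulatory transcription factor, had 110 ± 28.2 CPM in HSC-like cells (1.67 ± 0.18, adjusted p = 3.12e-13) and 68.0 ± 17.3 CPM in LMPP/MPP-like cells, where 1.10 ± 0.12 dropped to 0.98 without mouse 4. Its lowest level was in neutrophil-like cells, 19.3 ± 9.08 CPM. Klf6, a Krüppel-like transcription factor, was higher in HSC-like cells (1.54 ± 0.17, adjusted p = 5.10e-13) and in mast cell/basophil-like cells (1.81 ± 0.10).

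For Rgs1 and Klf6, mice 1 and 2 stood apart from the other 4. In LMPP/MPP-like cells Rgs1 had 58.0 and 54.5 CPM in mice 1 and 2, a young and an aged mouse, and 122 to 396 CPM in the other 4. In mast cell/basophil-like cells Klf6 had 116 and 39.5 CPM in mice 1 and 2 and 263 to 507 CPM in the others. The long reads come from the same cDNA and had the same split. Rgs1 lay at 14.9 and 17.9 CPM against 78.1 to 111 CPM, and Klf6 at 26.97 and 16.7 CPM against 105 to 255 CPM. What sets mice 1 and 2 apart was not tested. The member of Rgs1 retains an intron and that of Klf6 includes a 68-nt poison exon.

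In cycling MPP-like cells, which were named from cell-cycle markers, Cenpa, Knstrn and Apobec3 led. Cenpa, the histone H3 variant of centromeres, lay between 460 and 510 CPM in mice 1 to 5 and at 238 CPM in mouse 6, a log2 difference of 2.27 ± 0.08 (adjusted p = 3.25e-39, edgeR). It was also higher in erythroid-like cells (300.2 ± 37.99 CPM) and lowest in HSC-like cells (20.1 ± 12.3 CPM). Knstrn, a protein of kinetochores and the spindle, had 160 ± 32.1 CPM and a log2 difference of 2.02 ± 0.13. Apobec3, a cytidine deaminase that restricts retroviruses, had 298 ± 35.2 CPM (1.16 ± 0.08). Both members of Cenpa include an exon that the closest protein-coding transcript lacks.

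Megakaryocyte-like and erythroid-like cells each had a host that stood far above all other classes. Rabgap1l, a Rab GTPase-activating protein, lay between 234 and 390 CPM in megakaryocyte-like cells, with a median of 299 CPM and a log2 difference of 2.22 ± 0.09 (adjusted p = 3.13e-36, edgeR). The next class was cycling MPP-like, at 122 ± 28.2 CPM, and every mouse's megakaryocyte-like value exceeded that mean. Tmem123 reached 120 ± 34.5 CPM there (1.11 ± 0.11, and 0.99 without mouse 2). In erythroid-like cells Nxpe2, a naming marker, had 51.0 to 84.0 CPM with a median of 76.6 CPM, and the means of the other classes were at most 5.25 CPM. Ttll12, of the tubulin tyrosine ligase-like family, had 67.5 ± 12.1 CPM (2.37 ± 0.12, adjusted p = 4.32e-32) and Tmem238 had 170 ± 32.5 CPM (1.65 ± 0.08). The member of Nxpe2 skips an exon of 731 nt, and that of Tmem238 was the shortest of the 401, at 241 nt. Nxpe2 had only 7 long reads over all runs, with 4 transcripts that carry a status.

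Granulocyte and monocyte classes were led by Mpo, Pde4d, Ifngr1 and Ifi209. Mpo lay between 8755 and 16418 CPM in neutrophil-like cells (median 11946 CPM, log2 difference 3.26 ± 0.09), at 7702 ± 1994 CPM in PreGM-like, 6454 ± 1748 CPM (n = 4) in eosinophil-like and 4387 ± 323 CPM in GMP/monocyte progenitor-like cells. HSC-like (188 ± 98.4 CPM), erythroid-like (207 ± 111 CPM) and megakaryocyte-like cells (270 ± 117 CPM) were lowest, and their mice overlapped. Pde4d, a phosphodiesterase that breaks down cyclic AMP, had 176 to 230 CPM in neutrophil-like cells of 5 mice and 394 CPM in mouse 6 (2.83 ± 0.11). It was also called higher in PreGM-like (99.02 ± 16.3 CPM) and eosinophil-like cells (130 ± 14.0 CPM, n = 4). Ifngr1, the ligand-binding chain of the interferon gamma receptor and the only cytokine receptor of the fixed list with a member, had 461 ± 66.4 CPM in neutrophil-like cells (1.98 ± 0.08, adjusted p = 1.22e-38). It was lowest in megakaryocyte-like cells, at 57.6 ± 21.2 CPM (-1.42 ± 0.14, adjusted p = 4.94e-15). Il4ra, a cytokine receptor that is not on the fixed list, was a host too, called higher in 4 classes and lower in 2.

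Ifi209, an interferon-inducible gene of the PYHIN family, had 43.1 to 49.0 CPM in GMP/monocyte progenitor-like cells of 5 mice and 79.1 CPM in mouse 5. The next class, cycling MPP-like, had a mean of 7.68 CPM, and no UMI was counted in HSC-like cells of any mouse, so no fitted size is given. Ifi209 belongs to a family of near-identical paralogs, and how reads were split between them is uncertain. Only 23 long reads over all runs were counted for Ifi209. B4galnt1, which makes complex gangliosides, had 175 ± 24.05 CPM in PreGM-like cells (1.08 ± 0.07) and 227 ± 49.5 CPM in neutrophil-like cells. Flot1, a scaffold protein of lipid rafts, passed the size threshold in mast cell/basophil-like cells by little (127 ± 19.2 CPM, 1.01 ± 0.08), and fell to 0.98 with DESeq2, 0.97 without mouse 5 and 0.96 without mouse 6. Edem1, which directs misfolded glycoproteins to degradation, rested on 30 UMIs in eosinophil-like cells (1.16 ± 0.33, adjusted p = 0.0219, edgeR) and was not called without mouse 1 or mouse 2 (0.68 and 1.25).

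**Figure D4:**
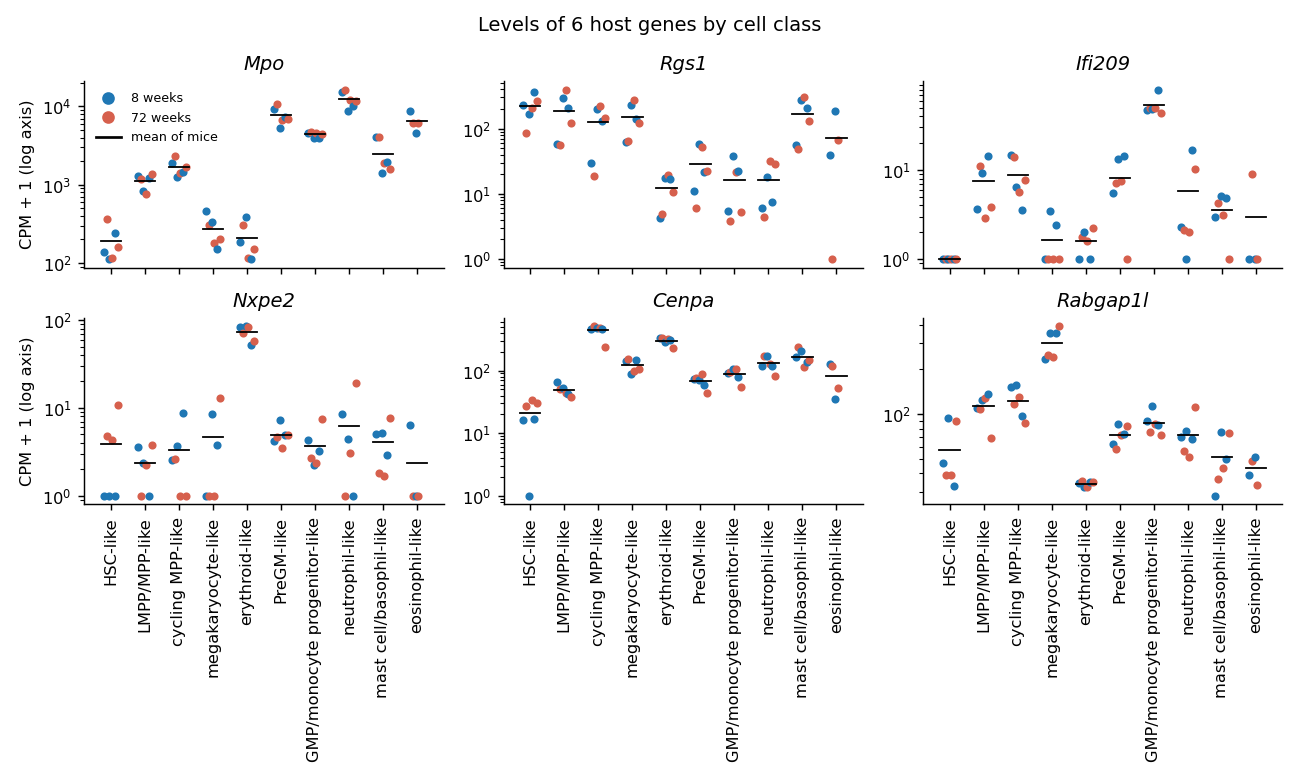
Level in CPM plus 1 (vertical log axis) of Mpo, Rgs1, Ifi209, Nxpe2, Cenpa and Rabgap1l in 10 cell classes, 1 point per mouse (blue, 8 weeks, and red, 72 weeks), with a bar at the mean over mice. Nxpe2 exceeds 50 CPM in erythroid-like cells of every mouse, Ifi209 exceeds 43 CPM in GMP/monocyte progenitor-like cells of every mouse, and blue and red points overlap in the leading class of each gene.

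Of the 16 hosts on the splicing lists, Srsf7, Snrpa1 and Luc7l were called in a class, each lower and in 1 class. Srsf7 lay between 127 and 236 CPM in HSC-like cells (median 148 CPM, mean 164 ± 41.4 CPM) and was called lower there (-1.06 ± 0.10, adjusted p = 2.49e-16, edgeR). That was under the size threshold with DESeq2's size factors in edgeR (-0.84), with DESeq2 (-0.86) and without mouse 4 (-0.87). Snrpa1, of the U2 small nuclear ribonucleoprotein, had 31.7 to 122 CPM in HSC-like cells (-1.05 ± 0.14, adjusted p = 1.48e-09), with the same limits at -0.83, -0.84 and, without mouse 4, -0.95, and at -0.97 without mouse 1. Luc7l, a factor of 5 prime splice site choice, was called lower in eosinophil-like cells on 5 UMIs. Hnrnpa1, Ptbp1, Hnrnpdl, Srsf6, Srrm2, Rbm39, Tra2b, Ddx5 and Prpf38b were called in no class. Rbm39 was highest in HSC-like cells, at 598 ± 130 CPM, and lowest in neutrophil-like cells, at 358 ± 45.5 CPM. Ptbp1 had 82.1 ± 36.0 CPM in HSC-like cells and 148 ± 13.8 CPM in GMP/monocyte progenitor-like cells. Pfn1, Rpl13a and Skp1a, among the hosts with most long reads, were called in no class either.

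The lists from which these hosts come are given mainly for HSC-like and erythroid-like cells, chosen after their values were seen. Genes count here at an adjusted p under 0.05 and any size (edgeR). Higher and lower together, such genes made up 34.0% of hosts and 35.6% of the background in HSC-like cells. In erythroid-like cells they made up 65.7% and 62.8%. Of 11 tested mitochondrially encoded genes, taken as signs of RNA quality, 7 were higher and 0 lower in erythroid-like cells (median log2 difference 0.30) and 2 higher and 1 lower in HSC-like cells (-0.03), and their part in the counts that follow was not tested. Of 38 tested spliceosome genes, 21 were lower and 0 higher in HSC-like cells (14 and 2 with DESeq2's size factors) and 32 higher and 0 lower in erythroid-like cells. Of 25 hnRNP genes, 20 were lower and 1 higher in HSC-like cells (12 and 1) and 16 higher and 4 lower in erythroid-like cells. Higher counts were not limited to erythroid-like cells. In GMP/monocyte progenitor-like cells 17 hnRNP genes were higher and 0 lower, and 19 spliceosome genes were higher and 1 lower. With DESeq2's size factors these counts were 9 and 0, and 16 and 1. Of 10 SR protein genes, 5 were lower and 1 higher in HSC-like cells and 8 higher and 1 lower in erythroid-like cells. Of 10 genes of the exon junction complex, 7 were lower and 0 higher in HSC-like cells (3 and 0) and 9 higher and 0 lower in erythroid-like cells. Of 12 NMD factors, 3 were lower and 1 higher in HSC-like cells (1 and 2), and 4 higher and 0 lower in erythroid-like cells. Their counts in HSC-like cells turned with the scaling, but the median of the list went from -0.26 to -0.06 while that of all genes went from -0.03 to 0.18. Among 41 other splicing regulators the counts in HSC-like cells turned as well, from 10 lower and 8 higher to 3 lower and 16 higher, and in erythroid-like cells from 13 higher and 11 lower to 10 higher and 13 lower. The median log2 differences in HSC-like cells were -0.55 for spliceosome and hnRNP genes, -0.49 for the exon junction complex and -0.46 for SR proteins, against -0.03 for all genes tested. With DESeq2's size factors they were -0.34, -0.33, -0.27 and -0.24, against 0.18.

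The share of counts on hosts was highest in neutrophil-like cells, at 3.81% ± 0.358 (SD, n = 6), followed by PreGM-like cells at 3.46% ± 0.305, and lowest in erythroid-like cells at 2.84% ± 0.0919. Without Mpo, the class means lay between 2.68% and 2.99%. Neutrophil-like cells were then lowest, at 2.68% ± 0.0860, and cycling MPP-like cells highest, at 2.99% ± 0.107. Levels in the 2 kinds of reads ranked the hosts alike, with a Spearman rho of 0.81 over 363 hosts, which share the 6 mice.

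The study compared young with aged mice, and no host differed with age at an adjusted p under 0.05. In short reads of all LK cells, 0 of 356 tested hosts and 0% of 12302 genes were called with edgeR, and DESeq2 called 12 genes, 0 of them hosts. At an unadjusted p under 0.05 there were 6 hosts (1.69%, against 3.02% of all genes). All 3 aged mice lay above all young mice for 14 hosts (3.93% against 4.36%) and below for 11 (3.09% against 3.41%). In long reads edgeR called 0 of 339 hosts and 0% of 9261 genes, and DESeq2 called 0 hosts and 0 genes. At an unadjusted p under 0.05 there were 5 hosts (1.47% against 1.51%), with 14 above (4.13% against 3.35%) and 6 below (1.77% against 2.98%). The median log2 difference of hosts was -0.01 in short and 0.01 in long reads, against 0.00 and 0.01 for all genes.

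The hosts whose ages did not overlap and whose difference was largest did not pass the adjustment, since no adjusted p (edgeR) lay under 0.999. In short reads Mtdh, a membrane protein of the endoplasmic reticulum, had 121, 153 and 149 CPM in mice 1, 3 and 5, and 158, 180 and 172 CPM in mice 2, 4 and 6 (0.27 ± 0.13 on the log2 scale). Skp1a had 166, 192 and 146 CPM in mice 1, 3 and 5, and 136, 141 and 129 CPM in the aged mice (-0.31 ± 0.13), but 0.06 in long reads. Memo1, linked to cell migration, had lower values in aged mice in both kinds of reads, at 65.0 ± 3.39 against 56.8 ± 2.89 CPM in short and 141 ± 4.51 against 116 ± 22.2 CPM in long reads. Irf2, which is named above for its level in HSC-like cells, was the other named host without overlap in both, with higher values in aged mice (30.9 ± 4.85 against 39.2 ± 2.19 CPM in short reads, 111 ± 12.0 against 136 ± 5.14 CPM in long reads). HSC-like cells, in which Irf2 was highest, numbered 17, 24 and 11 in the young mice and 72, 159 and 23 in the aged mice, and their part in this difference was not tested. Syce2, of the synaptonemal complex, had 223 ± 30.1 against 191 ± 9.61 CPM in short reads.

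In long reads Myo1g, a myosin of blood cells, had 58.4, 50.3 and 50.8 CPM in the young mice and 92.3, 66.9 and 72.6 CPM in the aged mice (0.54 ± 0.19). Its short-read difference was -0.25, and the gene overlaps 4 others on its strand. Ddx5 had 678 ± 71.1 CPM at 8 weeks and 844 ± 4.54 CPM at 72 weeks in long reads (0.32 ± 0.14) and a difference of -0.03 in short reads. Mavs, the mitochondrial adaptor of antiviral signalling, had 47.8 ± 2.52 against 61.7 ± 8.37 CPM. Tmem208 (131 ± 16.1 against 98.6 ± 7.14 CPM) and Khdc4 (148 ± 19.4 against 114 ± 4.43 CPM), an RNA-binding protein, lay lower in aged mice, as did Cenpa (238 ± 41.0 against 190 ± 24.7 CPM), whose short reads overlapped between ages.

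The share of all counts on hosts did not differ beyond the spread between mice. It was 3.09% ± 0.195 (SD, n = 3) in young and 3.09% ± 0.133 in aged mice in short reads, a difference of -0.0036 percentage points (two-sided exact permutation test, p = 1). In long reads it was 4.55% ± 0.161 and 4.78% ± 0.388, a difference of 0.227 points (exact permutation p = 0.6), and 0.0054 points without mouse 2. Without Mpo the long-read shares were 3.48% ± 0.0766 and 3.51% ± 0.0441 (exact permutation p = 0.6). With 3 mice against 3 the smallest p is 0.1, so this design cannot reach 0.05.

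**Figure D5:**
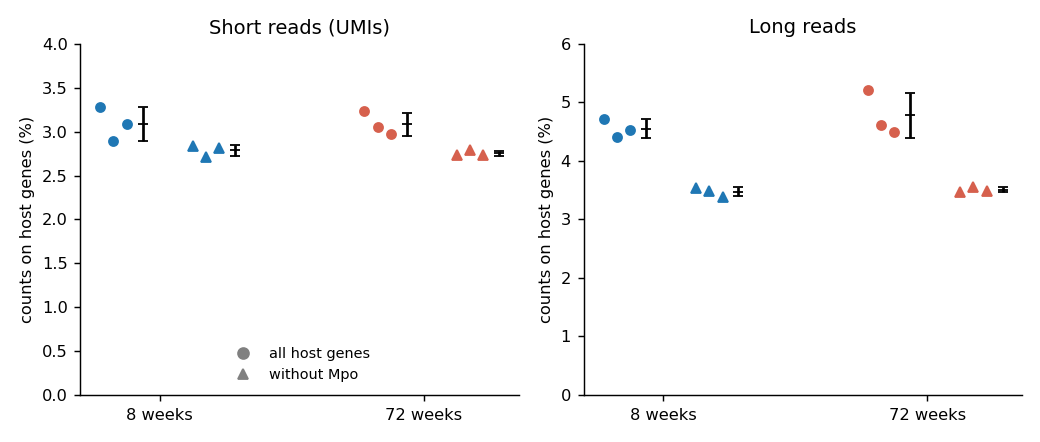
Share in percent of a mouse's counts that lie on host genes (vertical axis), in short and in long reads of young and aged mice, 1 symbol per mouse (circles, all hosts, and triangles, without Mpo), with the mean and SD over 3 mice. Young and aged mice overlap in every comparison, and without Mpo the symbols draw together.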

How the data were processed

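The authors deposited short-read counts, as UMIs per gene and cell made with Cell Ranger 3.0.2 and merged with Seurat 3 (cells of 1000 or more genes, with mitochondrial counts up to 5%), and long-read counts of reads per gene and run, aligned with minimap2 and counted with HTSeq. Neither is normalized. The deposited annotation holds positions, made with TranscriptClean and TALON on GRCm38. The methods give a filter of at least 5 reads in at least 3 samples for identified transcripts. Reads per transcript were not analysed here, so whether each known one passed it was not checked. Reading frames came from Gencode M21. Of 12 long-read runs, 10 name a mouse and were summed per mouse, 2 name only an age and were left out, and 0 sample columns went unused otherwise. Members and gene lists were chosen with earlier results of these data known.

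Cells were integrated between mice and clustered with Seurat 5.3.0 (2000 variable genes without hosts, 20 dimensions, resolution 0.8, seed 42). A cluster was named where at least 3 markers were among its 15 leading genes. Doublets were neither called nor removed. Sums needed 10 cells, and 2 unnamed clusters (1154 cells) and mature B cell/plasma cell-like (132) and macrophage/dendritic cell-like (72) classes were left out. Counts were filtered with filterByExpr, scaled by TMM and tested with edgeR 4.0.16 in R 4.3.3. The mouse was a block in class comparisons, because every class comes from the same 6 animals. CPM of hosts relate to the TMM-scaled total of a sum over the genes that passed the filter. Shares were compared with exact permutation tests over all splits of the mice (numpy 2.4.6). Fits were tested on simulated data.

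Named genes are up to 4 hosts per list by long-read CPM and any list member singled out, up to 3 hosts per class called higher with at least 50 CPM, the 5 with most long reads, the 5 with most members, up to 3 per direction and kind of reads that differ between ages without overlap, and members at an extreme of structure. Alternatives were no block, DESeq2 1.42.0, no filter, DESeq2's size factors, 2 other resolutions, clustering with hosts, a term for mice 1 and 2, single instruments, immunoglobulin or mitochondrial genes left out, other structure rules, and each mouse left out. Leaving out mice 1 and 2 together, adding the runs named by age and leaving out Mpo were chosen after seeing the data. The filter on low counts ran anew in each alternative that used it, so the tested hosts can differ from those of the main fit. Without mice 1 and 2, eosinophil-like cells were left out of the fit. Counts limit the precision for low genes and small classes, and a UMI count of 0 covers counting error only.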

Additional observations from a re-analysis of the deposited data

Results flagged for a closer look

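Among 38 groups of 4 or 6 mice, made of the named hosts in their leading classes and of the share of counts on hosts in each class, 3 held a mouse whose gap to the nearest other mouse, divided by the range of the group, passed Dixon's 95% limit. Chance gives about 1 in 20 such groups. Cenpa in cycling MPP-like cells had 238 CPM in mouse 6, under all other mice. Ifi209 in GMP/monocyte progenitor-like cells had 79.1 CPM in mouse 5, above all other mice. Pde4d in neutrophil-like cells had 394 CPM in mouse 6, above all other mice.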

How the results depend on the processing

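Every class comes from the same 6 animals, so the mouse was a block. The fit with no replicate block called 97 pairs of host and class higher, against 104 with the pairing by mouse, and 95 were shared. DESeq2 called 107, of which 91 were shared. The fit without mice 1 and 2, which held no eosinophil-like class, called 80, of which 68 were shared. Of 389 repeats of the 28 named pairs under other settings, 375 kept their call and 14 did not, and none turned in direction. The 28 were picked for a large log2 difference at 50 CPM or more, so they do not stand for all 104. HSC-like calls moved most. Higher calls were 33 with DESeq2, 31 with DESeq2's size factors in edgeR, and 8 to 21 with each mouse left out. Lower calls were 11, 12, and 14 to 23. With no filter on low counts, higher calls were 11 in megakaryocyte-like, 31 in erythroid-like and 14 in GMP/monocyte progenitor-like cells. Without mice 1 and 2, chosen after seeing the data, higher calls were 7 in LMPP/MPP-like and 4 in megakaryocyte-like cells, and 1 was lower in mast cell/basophil-like cells. At resolution 0.4, cycling MPP-like cells had 7 higher and 0 lower. PreGM-like cells had 2 lower with DESeq2 and 2 with its size factors, 0 with hosts in the clustering, and 1 to 2 with a mouse left out. With a mouse left out, lower calls were 1 to 2 in mast cell/basophil-like and 0 to 4 in eosinophil-like cells, where DESeq2 gave 2. The cause was not tested in any of these, except that leaving out mice lowers the number of cells. The short-read share on hosts, aged minus young, changed sign from -0.0036 to 0.0553 points without immunoglobulin genes and 0.0009 without mitochondrial genes, and ran from -0.1018 to 0.0933 with a mouse left out. A limit of 55 nt left 98.0% of members past it. Small sums limit HSC-like cells, with 11 cells in mouse 5, and eosinophil-like cells.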
